A study of Homo sapiens with 54 samples.

Results

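The late phase of the calcitriol response of HL60 was described from 4 arrays, 2 after 36 h and 2 after 8 h with calcitriol, the hormonal form of vitamin D, out of 54 arrays in the series. They were chosen by the cell line and time of their labels. HL60 is a human promyelocytic leukaemia line, and these arrays carried no further genotype or treatment in the labels. The 2 HL60 arrays at 0 h, labelled with no agent, are given beside them so that genes changing after 8 h can be told from genes that had already changed. The rest of the series, used only for comparison and for a shared estimate of the spread, consisted of 8 other lines at the same times. Those were the lymphoblastoid lines GM07019, GM07348, GM10854 and GM12878, the fibroblast lines AG09309 and AG09319, the hepatoma line HepG2 and K562, a chronic myeloid leukaemia line. HL60 cultures kept for 8 h or 36 h without calcitriol were not analysed here, so the time in culture and calcitriol cannot be told apart in any change below. The sources used here give no dose. The labels number the arrays of a group without saying that the cultures were separate, so the p-values rest on the spread between arrays, which may be technical.

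HL60 cells resemble promyelocytes, the stage of the myeloid lineage at which azurophil granules with MPO and elastase are made. Calcitriol binds the vitamin D receptor, which acts on DNA with a retinoid X receptor, and HL60 is known to mature towards monocytes under it. Specific and gelatinase granules, which hold MMP8, OLFM4, haptoglobin and orosomucoid, are made later in neutrophil maturation, and CD14, the co-receptor for bacterial lipopolysaccharide, is a defining marker of monocytes. CYP24A1, the enzyme that inactivates calcitriol, is a direct target of the receptor.

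All values are log2 expression levels, and changes are differences of log2 means, given as the estimate ± its standard error. A probe set is called where limma's two-sided test, with the spread shared over the 27 groups and Benjamini-Hochberg adjustment over all 19460 probe sets tested, gave an adjusted p under 0.05. The labelled line was checked on azurophil granule genes, which mark a stage and not 1 line. MPO lay between 11.30 and 11.72 on the 6 HL60 arrays and between 4.08 and 5.34 on the 48 others. PRTN3 lay between 8.27 and 8.94 against 5.61 to 6.89, and ELANE between 7.98 and 9.18 against 5.85 to 6.98. AZU1 overlapped, with 6.08 to 7.32 against 4.88 to 6.59. The 2 HL60 arrays had medians of 5.15 and 5.20 at 8 h and 5.21 and 5.20 at 36 h, and correlated at 0.9863 and 0.9893. Of the 54 arrays, 3 are said below to stand apart (1 each of K562 at 36 h, HepG2 at 0 h and AG09319 at 8 h). Only these 3 groups, whose pairs correlated at 0.9689, 0.9626 and 0.9305, were searched. In each, the array less correlated with the rest of its line was taken. Its mean correlation was 0.971, 0.972 and 0.922, against 0.984, 0.982 and 0.982 for the other array. The HL60 groups were not searched, and the HL60 pair at 0 h correlated at 0.9795. The 3 arrays enter the shared spread and the means of their own lines. Counts without them are given where they matter.

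Between 8 h and 36 h, 23 genes rose and 9 fell in HL60, and 8 of the 23 had already risen at 8 h. The largest rises were MMP8, a collagenase of specific granules, and FN1, the matrix protein fibronectin, followed by CYP24A1, the gluconeogenic enzyme FBP1, the acute-phase glycoprotein ORM1 and CD14. MMP8 rose 9.72-fold and CD14 2.86-fold. The MMP8 fold is not exact, as its 8 h mean of 5.11 lay near the array medians of 5.15 and 5.20. In all, 39 probe sets were called, 0.200% of those tested. They comprised 30 higher (0.154%) and 9 lower (0.0462%) and belonged to 32 genes. Both 36 h arrays lay outside the range of the 8 h arrays for all 39, as they did for 43.9% of all probe sets tested. The called rises ran from 0.78 to 3.28 and the called falls from -0.66 to -1.06, and 20 of the 39 calls had a size of at least 1. The count rested on all 4 arrays. Leaving out 1 of them left 6 to 12 calls, and only MMP8, FN1, CYP24A1, FBP1 and AQP9 were called in all 4 of these fits. Without the 3 arrays that stood apart, 113 probe sets were called (0.581%), 87 higher and 26 lower, and these included all 39.

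**Figure D1:**
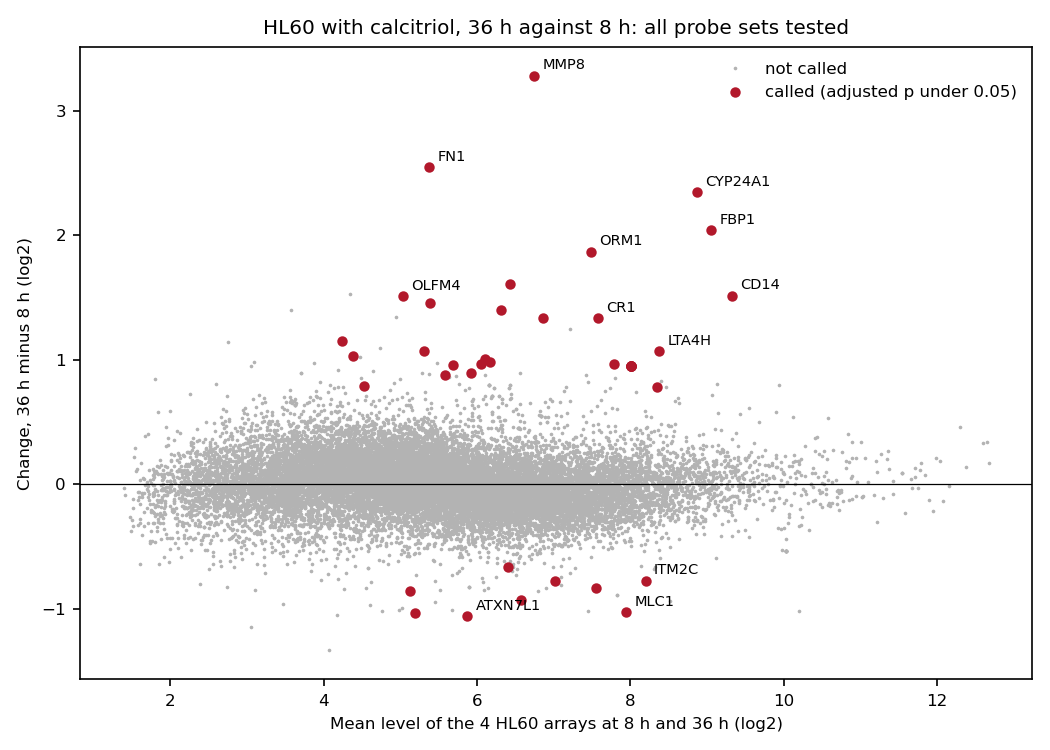
The change between 8 h and 36 h in HL60 (log2, vertical axis) is plotted against the mean level of the 4 arrays (log2, horizontal axis) for all 19460 probe sets tested. Red points are the 39 called, with MMP8 at the top at 3.28 and the falls reaching -1.06.

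Of the 32 genes, 8 had already risen at 8 h and rose again, 13 rose and 7 fell with an early change that was not called and was under 0.5 in size, 1 rose early and turned back, and for 3 the early change was not settled. Against 0 h, 46 probe sets were called at 8 h, 0.236% of those tested, 45 of them higher. The early and late steps share the 8 h arrays, so a chance deviation of those arrays enters them with opposite sign. The promoters of the 3 marker genes and of FN1, the largest rise without an early one, are shown because the results turn on these genes. They are the 250 bases before the RefSeq start in GRCh38.p14, printed along the gene's strand, at chr11:102724955-102725204 (minus strand), chr9:114322848-114323097 (plus), chr5:140633176-140633425 (minus) and chr2:215436069-215436318 (minus). Capitals mark matches to CCAAT or TTTGAA.
MMP8: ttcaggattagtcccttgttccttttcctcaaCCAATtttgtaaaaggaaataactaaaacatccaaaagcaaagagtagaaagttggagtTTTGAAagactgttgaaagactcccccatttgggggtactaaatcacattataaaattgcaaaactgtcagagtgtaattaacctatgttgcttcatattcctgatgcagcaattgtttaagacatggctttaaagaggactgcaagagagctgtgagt
ORM1: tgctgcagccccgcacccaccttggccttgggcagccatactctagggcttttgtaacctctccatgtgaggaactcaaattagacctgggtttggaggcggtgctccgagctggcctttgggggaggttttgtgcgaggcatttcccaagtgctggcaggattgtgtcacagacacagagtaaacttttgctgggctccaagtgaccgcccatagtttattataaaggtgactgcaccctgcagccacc
CD14: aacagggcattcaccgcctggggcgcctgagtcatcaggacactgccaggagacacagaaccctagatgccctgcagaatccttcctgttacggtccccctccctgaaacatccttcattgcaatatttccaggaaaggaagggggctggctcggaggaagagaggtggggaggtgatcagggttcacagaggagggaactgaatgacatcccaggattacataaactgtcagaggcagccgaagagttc
FN1: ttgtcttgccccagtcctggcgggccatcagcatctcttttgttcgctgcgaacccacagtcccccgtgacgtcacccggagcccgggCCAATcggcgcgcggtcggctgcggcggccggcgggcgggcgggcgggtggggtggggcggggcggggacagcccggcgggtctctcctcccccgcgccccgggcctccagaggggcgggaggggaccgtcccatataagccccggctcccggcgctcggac
In MMP8, CCAAT spanned the bases -218 to -214 from the start and TTTGAA -159 to -154, and in FN1 CCAAT spanned -162 to -158. The windows of CD14 and ORM1 held none of the motifs searched. The search covered both strands for the CCAAT box, the cell cycle homology region TTTGAA, the E2F motifs TTTGGCGC and TTTCCCGC, the PU.1 motif GAGGAAGT and the C/EBP motif TTGCGCAA. It also covered the repeat bound by the vitamin D receptor, a pair of hexamers (AGGTCA or GGTTCA or AGTTCA) in direct orientation spaced by 3 bases. CYP24A1, ORM2 and TSPAN18 among the 15 named rises, and GNA15, MIR181B1 and RPA4 among the 9 named falls, had no entry in the table used. Among the named rises with a window, 6 of 12 held CCAAT and 3 of 12 held TTTGAA, and among the named falls 1 of 6 held CCAAT and 0 of 6 TTTGAA. Of all 27305 promoters in the table, 33.0% held CCAAT and 13.6% TTTGAA. The other motifs were in 0 of these 18 windows and in 0.553% (TTTGGCGC), 1.42% (TTTCCCGC), 2.13% (GAGGAAGT), 0.11% (TTGCGCAA) and 0.0366% (the direct repeat) of all promoters. A match is a description of letters and not a bound site.

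The 8 genes that continued to rise were MMP8, CYP24A1, FBP1, ORM1, its paralog ORM2, CD14, QPCT and TREM1. MMP8 stood at 2.98 and 3.80 at 0 h, at 5.54 and 4.68 at 8 h and at 8.30 and 8.48 at 36 h. Both 36 h arrays were far above both 8 h arrays, which themselves differed by more than the 36 h pair did. The late change was 3.28 ± 0.26 (n = 2 against 2, limma, adjusted p = 1.81e-10) after an early change of 1.72 ± 0.26. These standard errors rest on the spread shared over the 27 groups. The MMP8 arrays themselves had an SD of 0.61 at 8 h and 0.13 at 36 h. With the 6 HL60 arrays alone, limma gave an adjusted p of 1.03e-05 for the late change. The late step exceeded the early one by 1.56 ± 0.45, a difference that did not pass (adjusted p = 0.599). MMP8 levels at 0 h, and the 4.68 at 8 h, lay below the array medians. No detection calls were used there, so neither the early nor the late fold is exact. Leaving out 1 of the 4 arrays at 8 h and 36 h gave late changes from 2.85 to 3.72.

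CD14 read 5.98 and 5.99 at 0 h, 8.72 and 8.41 at 8 h and 10.20 and 9.97 at 36 h. The 3 times did not overlap, and the late change was 1.51 ± 0.24 (limma, adjusted p = 6.17e-04) after 2.58 ± 0.24. ORM1, a plasma glycoprotein also stored in neutrophil granules, read 4.59 and 4.41, then 6.65 and 6.45, then 8.53 and 8.30. It rose by 2.05 ± 0.31 early and by 1.87 ± 0.31 late (limma, adjusted p = 1.76e-03), and its times did not overlap. ORM2 rose by 1.61 ± 0.35 late (adjusted p = 0.0319), but ORM1 and ORM2 are near-identical copies whose probes may share signal, so the ORM2 value is uncertain. CD14 lost its call without replicate 2 at 8 h (adjusted p = 0.0612) or replicate 1 at 36 h (0.0595), ORM1 without the same arrays (0.0691 and 0.0618), and ORM2 without any of the 4.

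CYP24A1 read 3.75 and 3.45 at 0 h, 7.82 and 7.57 at 8 h and 10.04 and 10.05 at 36 h. The late arrays were nearly equal and stood above the 8 h arrays by 2.35 ± 0.33 (limma, adjusted p = 1.25e-04), after an early rise of 4.10 ± 0.33. FBP1, fructose-1,6-bisphosphatase, went from 5.11 and 5.13 through 8.25 and 7.82 to 10.06 and 10.09. Its late rise was 2.04 ± 0.21 (adjusted p = 1.25e-07) after 2.91 ± 0.21, with no overlap between times. For both genes the late step was smaller than the early one by a margin that did not pass, -1.75 ± 0.58 for CYP24A1 (adjusted p = 0.805) and -0.87 ± 0.37 for FBP1 (0.999).

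TREM1, a receptor that amplifies inflammatory signals on monocytes and neutrophils, read 4.06 and 4.08 at 0 h, 6.37 and 6.02 at 8 h and 7.30 and 7.75 at 36 h. It rose by 1.33 ± 0.19 in the late step (limma, adjusted p = 1.38e-04), and fell just outside the threshold without replicate 2 at 8 h (0.0501). QPCT, an enzyme that forms pyroglutamate at the ends of proteins, read 4.21 and 4.33, then 5.42 and 5.82, then 7.06 and 6.97. Its late rise of 1.40 ± 0.25 (adjusted p = 4.62e-03) followed an early rise of 1.35 ± 0.25, and it was called in 1 of the 4 fits that left out an array. In none of the 8 genes did the late step differ from the early one by the test of that difference.

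**Figure D2:**
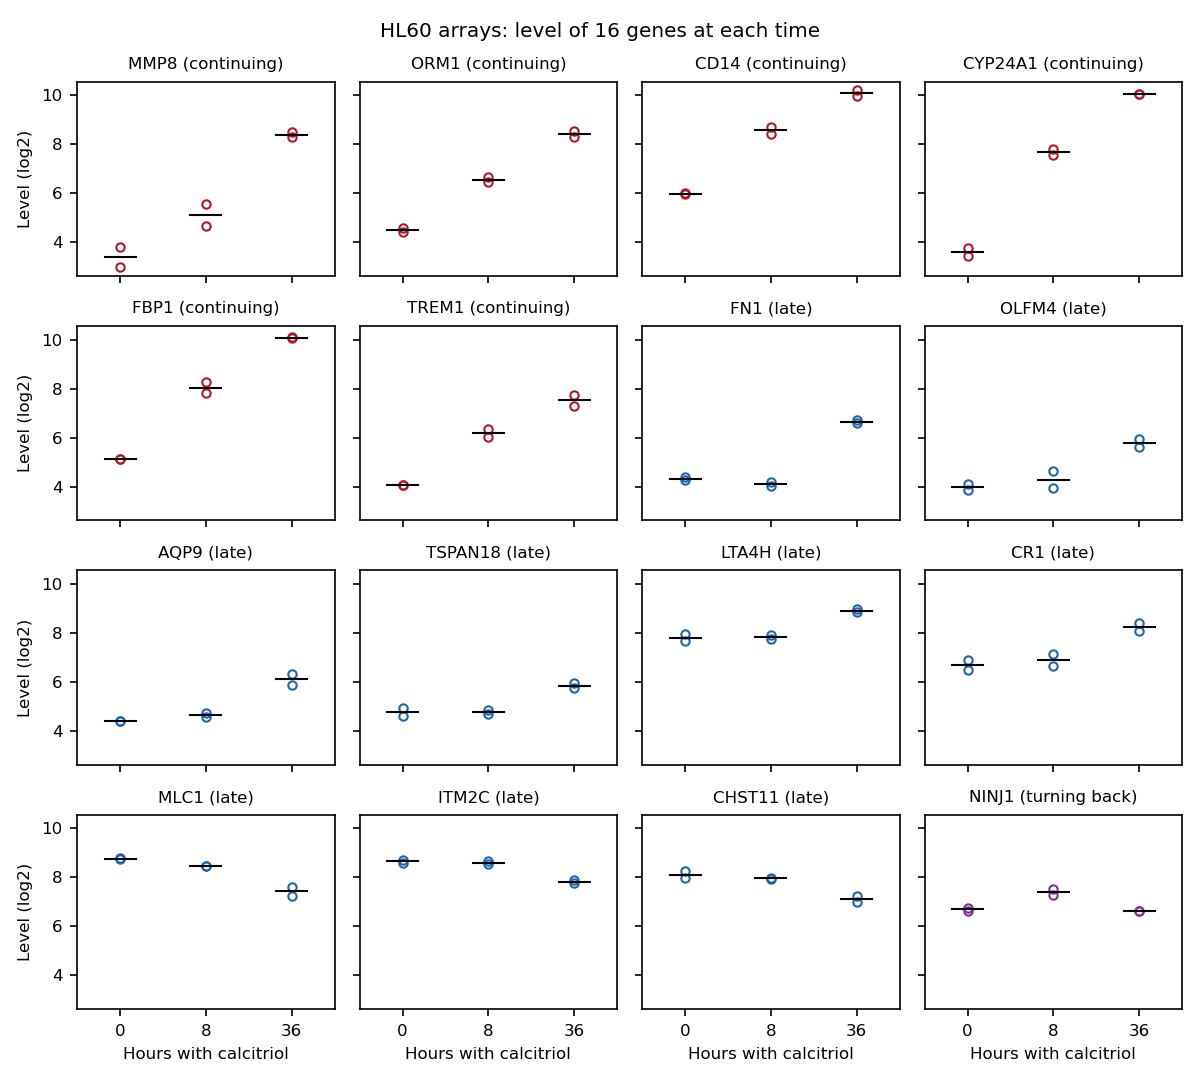
Levels (log2) of 16 genes on each HL60 array are plotted at 0, 8 and 36 h, with circles for arrays and bars for means of 2. The 6 continuing genes (red) climb in 2 steps, the 9 late genes (blue) move between 8 h and 36 h, and NINJ1 (purple) returns to its 0 h level.

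A late rise, with an early change not called and under 0.5 in size, was seen in 13 genes. They were FN1, OLFM4, AQP9, CR1, TSPAN18, LTA4H, IGKC, REXO1L1P, LRP1, OR7E85BP, SEPTIN3, MX2 and IFI30. FN1 read 4.38 and 4.25 at 0 h, 4.04 and 4.18 at 8 h and 6.72 and 6.58 at 36 h. Both 36 h arrays were above all 4 earlier arrays, which lay close together. The late change was 2.54 ± 0.21 (limma, adjusted p = 1.81e-10) and the early one -0.21 ± 0.21 (adjusted p = 0.998, 95% interval -0.63 to 0.21). FN1 was the only gene of the 13 whose late step differed from its early step by the test, with a difference of 2.76 ± 0.36 (adjusted p = 7.96e-05).

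FN1 is also a fibroblast marker, so the rest of that list was read beside it. FN1 lay between 11.45 and 13.11 on the 12 arrays of the fibroblast lines. Of the 11 other fibroblast genes 0 were called late, and their mean level in HL60 was 4.08 and 4.27 at 8 h and 4.35 and 4.36 at 36 h, against 8.66 to 10.02 in the fibroblast lines. The other fibroblast genes lay far below their fibroblast levels at both times, with late changes from -0.24 to 0.52.

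OLFM4, olfactomedin 4 of specific granules, read 3.86 and 4.10 at 0 h, 4.62 and 3.94 at 8 h and 5.63 and 5.95 at 36 h. It rose by 1.51 ± 0.23 (limma, adjusted p = 4.02e-04) after an early change of 0.30 ± 0.23 that was not called. AQP9, a channel for water and glycerol, read 4.39 and 4.41, then 4.74 and 4.57, then 5.89 and 6.33, a rise of 1.46 ± 0.20 (adjusted p = 1.11e-04) after 0.25 ± 0.20. In both genes the 36 h arrays lay above all 4 earlier ones. OLFM4 lost its call without replicate 2 at 8 h (0.107) or replicate 2 at 36 h (0.0532), while AQP9 kept it throughout (at most 0.0363).

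CR1, the receptor for complement C3b, read 7.16 and 6.67 at 8 h and 8.09 and 8.40 at 36 h and rose by 1.33 ± 0.30 (limma, adjusted p = 0.0357). LTA4H, which makes leukotriene B4, read 7.91 and 7.77 at 8 h and 8.96 and 8.86 at 36 h, a rise of 1.07 ± 0.22 (0.0161). Its late changes in the 8 other lines ran from -0.40 to 1.04, the highest in AG09319. The HL60 excess over their mean, 0.89 ± 0.23, did not pass (0.184). TSPAN18, a tetraspanin, went from 4.71 and 4.84 to 5.94 and 5.75, by 1.07 ± 0.19 (4.62e-03). For all 3 the 36 h arrays were above every earlier array, and the early changes of 0.22, 0.04 and 0.00 were not called. CR1 and LTA4H were not called when any 1 of the 4 arrays was left out, and TSPAN18 was called in 1 of those 4 fits.

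Smaller late rises were those of LRP1, an endocytic receptor of macrophages and many other cells (0.96 ± 0.18, limma, adjusted p = 7.71e-03), SEPTIN3 (0.88 ± 0.17, 8.93e-03), the interferon-induced GTPase MX2 (0.79 ± 0.16, 0.0172) and the lysosomal thiol reductase IFI30 (0.78 ± 0.18, 0.045). LRP1 read 5.17 and 5.24 at 8 h and 6.19 and 6.14 at 36 h, with an early change of 0.01, so its arrays formed a low group of 4 and a high group of 2. MX2 also rose in all 8 other lines, by 0.13 to 1.03, and the HL60 excess over their mean, 0.39 ± 0.17, did not pass (limma, adjusted p = 0.558). SEPTIN3 had an early change of 0.48, just inside the limit of 0.5 for a late gene. None of these 4 was called when 1 of the 4 arrays was left out, and MX2 and IFI30 lost the call with the 6 HL60 arrays alone (0.0757 and 0.136), IFI30 also with centred arrays (0.0889) and with 1 probe set per gene (0.0572).

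Several calls came from multicopy features. REXO1L1P had 6 of 6 probe sets called, 5 of them with identical values of 7.40 and 7.67 at 8 h and 8.38 and 8.57 at 36 h, so they count as 1 measurement. For IGKC, the immunoglobulin kappa constant region, 3 of 13 probe sets were called, with rises of 0.96 to 1.01. The mean over the 8 other lines also rose on these 3 probe sets, by 0.40 to 0.43. It rose too on the REXO1L1P probe sets, by 0.25 and 0.33, and on the called probe set of OR7E85BP, by 0.26. Of 7 B cell markers 0 were called, and their mean level was 4.60 and 4.61 at 8 h and 4.67 and 4.69 at 36 h, against 7.01 to 7.74 in the lymphoblastoid lines. Their part in the IGKC values was not tested. The calls of IGKC, REXO1L1P and the pseudogene OR7E85BP were all lost under quantile normalization (adjusted p of 0.0541 to 0.104).

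The falls were fewer and smaller. Of the 9 genes called lower, 7 had no called early change and were late by the rule. In none of these 7 did the late step differ from the early one by limma's test (adjusted p of 0.256 to 0.999). The label late therefore does not show that their steps differ. MLC1, a membrane protein best known from astrocytes, read 8.77 and 8.75 at 0 h, 8.44 and 8.48 at 8 h and 7.62 and 7.24 at 36 h. It fell by 1.03 on the log2 scale (± 0.19, limma, adjusted p = 7.77e-03), with both late arrays below all others. ITM2C, an integral membrane protein, read 8.53 and 8.65 at 8 h and 7.88 and 7.75 at 36 h and changed by -0.77 ± 0.15 (9.41e-03). CHST11, a chondroitin sulfotransferase, went from 7.94 and 7.99 to 7.25 and 7.01 (-0.84 ± 0.17, 0.0196). In ITM2C and CHST11 the 8 h arrays were close to the 0 h arrays. In MLC1 the 8 h arrays already lay below the 0 h arrays, with an early change of -0.30 ± 0.19 that was not called. In these 3 genes the 36 h arrays lay below all earlier ones.

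GNA15, a G protein alpha subunit of blood cells, changed by -0.93 ± 0.20 (limma, adjusted p = 0.0241), from 6.79 and 7.29 to 6.27 and 5.95. ATXN7L1 changed by -1.06 ± 0.22 (0.0232), from 6.58 and 6.24 to 5.32 and 5.37, and the nucleolar protein SURF6 by -0.66 ± 0.14 (0.0263), from 6.87 and 6.61 to 6.13 and 6.02. The groups did not overlap in these genes, but the 2 arrays at 8 h of each differed by more than those of MLC1. These ATXN7L1 values are from its called probe set. The gene's probe set of highest mean over all arrays was not called. Of the 9 falls, MLC1, GNA15 and RPA4 were called in 1 of the 4 fits without an array and the other 6 in none. With the 6 HL60 arrays alone, GNA15, CHST11, ITM2C, SURF6, RPA4 and NINJ1 lost the call (0.077 to 0.185), and under quantile normalization ATXN7L1 (0.126), GNA15 (0.0572), SURF6 (0.0502) and NINJ1 (0.271).

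The probe set of MIR181B1, the gene of the microRNA miR-181b, read 5.06 and 5.42 at 0 h, 5.76 and 5.65 at 8 h and 4.65 and 4.69 at 36 h. Both late arrays were below all others, and the late change was -1.04 ± 0.22 (limma, adjusted p = 0.0236) after an early change of 0.47 ± 0.22 that was not called. The probe set measures transcript from this gene and not the mature forms, which are shown to identify it. They are the RefSeq sequences in GRCh38.p14 at chr1:198858925-198858947 and chr1:198858887-198858907 (both on the minus strand), with the seed, bases 2 to 8, in capitals.
hsa-miR-181b-5p: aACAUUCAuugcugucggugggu
hsa-miR-181b-3p: cUCACUGAacaaugaaugcaa
The seeds of the 2 arms differ, and no target of either was examined here. The call was lost when any 1 of the 4 arrays was left out.

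The late step differed from the early step for 13 probe sets, 0.0668% of those tested, 8 with a late step below the early one and 5 with a late step above it, or 3 of 11 above with each array centred on its median. The 13 had several shapes. CLMN, a vitamin D responsive gene, read 5.01 and 5.35 at 0 h, 7.33 and 7.58 at 8 h and 7.34 and 7.81 at 36 h. It had reached its late level by 8 h, with an early change of 2.28 ± 0.19 and a late change of 0.12 ± 0.19 (95% interval -0.26 to 0.50), and the steps differed by -2.16 ± 0.32 (limma, adjusted p = 8.64e-04). CNR2, the cannabinoid receptor of immune cells, went from 6.91 and 7.07 to 8.51 and 8.87 and then to 8.13 and 8.05. Its late change of -0.60 ± 0.23 was not called (0.609), and its steps differed by -2.29 ± 0.39 (7.25e-03).

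NINJ1, a membrane protein that takes part in rupture of dying cells, read 6.76 and 6.61 at 0 h, 7.27 and 7.54 at 8 h and 6.62 and 6.64 at 36 h. It was the only gene called in both steps with opposite signs, 0.72 ± 0.16 early and -0.78 ± 0.16 late (limma, adjusted p = 0.0196), and the 36 h arrays were back within the 0 h range. The steps differed for NINJ1 by -1.49 ± 0.28 (0.0225). RPA4, a relative of a replication protein A subunit, read 4.77 and 4.99 at 0 h, 5.36 and 5.74 at 8 h and 4.80 and 4.60 at 36 h. Its late change was -0.86 ± 0.18 (0.0178), its early change of 0.67 ± 0.18 did not pass (0.133), and its steps differed (-1.53 ± 0.30, 0.0394). EID3 and the endocytic adaptor HIP1 also had steps that differed, by -1.74 ± 0.33 (0.0225) and -1.53 ± 0.30 (0.034), with early rises that were called and late changes of -0.76 and -0.73 that were not.

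In the other direction, OR1N1 read 4.77 and 4.40 at 0 h, 3.41 and 3.91 at 8 h and 4.77 and 4.86 at 36 h. Its late rise of 1.15 ± 0.25 (limma, adjusted p = 0.0241) took it back to its 0 h level, and the steps differed by 2.07 ± 0.43 (0.0452). It is an olfactory receptor gene at a low level, as is OR52K1, which rose late by 1.03 ± 0.20 (0.0121) from 3.93 and 3.80 to 4.91 and 4.88. USP18, the protease that removes ISG15, had steps that differed by 1.89 ± 0.40 (0.046), with 5.29 and 5.04 at 0 h, 4.15 and 4.22 at 8 h and 5.43 and 4.76 at 36 h. PRDX2, a peroxiredoxin, and ARMCX6 had differences between steps of 1.40 ± 0.29 (0.0452) and 1.43 ± 0.30 (0.046). USP18, PRDX2 and ARMCX6 did not pass for the late change alone. The early change was called for PRDX2 (-0.79 ± 0.17, 0.0191) and not for USP18 or ARMCX6.

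The count of 13 rested on single arrays. It fell to between 1 and 10 when 1 of the 6 HL60 arrays was left out (4 without replicate 1 and 1 without replicate 2 at 8 h, 3 and 5 at 36 h, 6 and 10 at 0 h), was 3 with the 6 HL60 arrays alone and 8 with the lines of the first title style, and rose to 23 without the 3 arrays that stood apart.

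**Figure D3:**
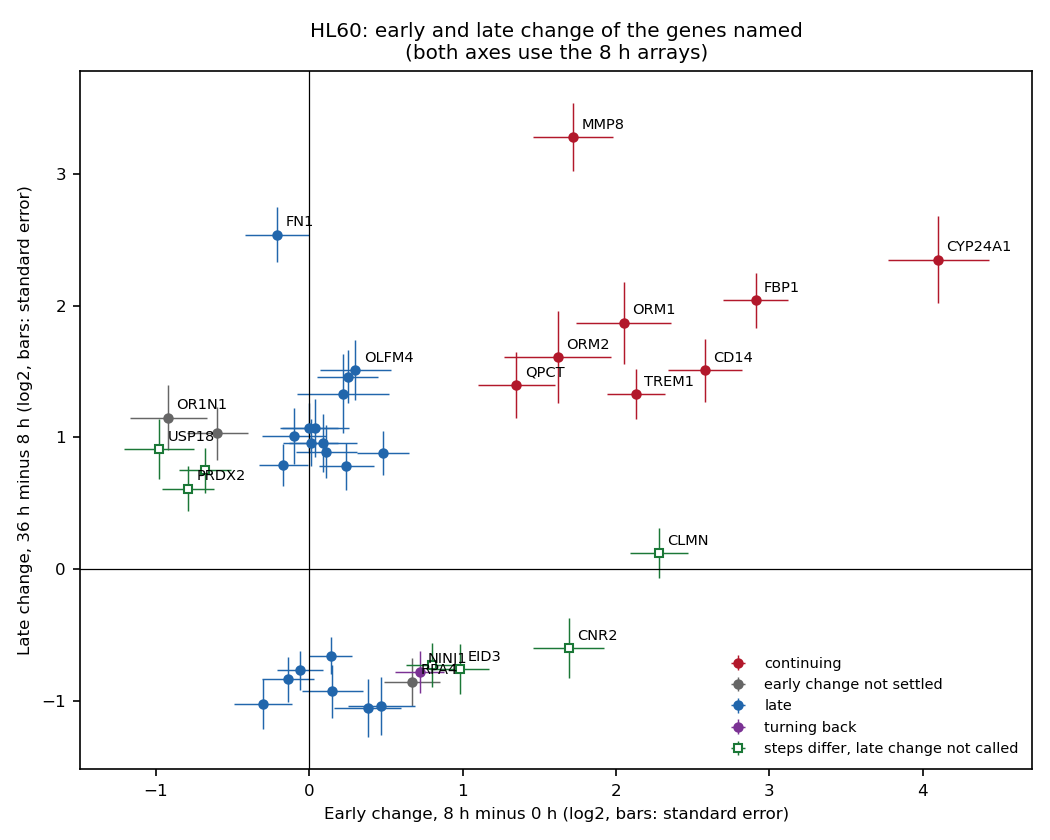
The late change (36 h minus 8 h) is plotted against the early change (8 h minus 0 h) in HL60, both in log2 with standard errors, for the 32 genes called late and for 7 genes whose steps differed without a late call. FN1 stands alone at a late change of 2.54 near an early change of 0, the 8 continuing genes lie at the upper right, and both axes share the 8 h arrays.

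The gene lists give the members that did and did not move. They were chosen with earlier results known, several members appear on more than 1 list, and a list is described by counts and its median beside the same over all 18417 genes, of which 21 were called higher and 8 lower on the probe set used, 9129 had a change above 0 and the median was -0.00. Of the 22 genes of specific and gelatinase granules, 4 were called higher (MMP8, ORM1, ORM2 and OLFM4) and 0 lower, with a median of 0.07. Among the 4, ORM1 and ORM2 are the near-identical copies whose probes may share signal. Of the 22, 13 had a change above 0, and the changes ran from -0.94 to 3.28. HP, haptoglobin, changed by 1.25 ± 0.33 and CAMP, cathelicidin, by 0.68 ± 0.20, and neither passed (limma, adjusted p of 0.137 and 0.233). HP read 6.52 and 6.66 at 8 h and 7.71 and 7.96 at 36 h. It passed with the 6 HL60 arrays alone (0.00497), with the first title style (0.0195) and without the 3 arrays that stood apart (0.0363). Among the settings tried, HP passed in no other. CAMP had 6.02 and 6.15 at 8 h and 6.83 and 6.71 at 36 h, without overlap. LTF, lactoferrin, stood at -0.22 ± 0.28 and LCN2, lipocalin 2, at 0.17 ± 0.24, and neither was called.

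Of the 13 azurophil granule genes 0 were called in the late step, and 1 of the 13 had a change above 0. Their median was -0.20, against -0.13 in the mean of the 8 other lines, and their mean level was 8.19 and 8.17 at 8 h and 8.06 and 7.80 at 36 h. Replicate 2 at 36 h was the lower array, and it was lower for MPO (11.62 and 11.30) and ELANE (8.55 and 7.98) too. MPO changed by -0.23 ± 0.22 and ELANE, neutrophil elastase, by -0.50 ± 0.23, and neither passed (limma, adjusted p of 1 and 0.811). BPI, which binds lipopolysaccharide, read 9.12 and 8.86 at 8 h and 8.12 and 7.99 at 36 h (-0.94 ± 0.22). It missed the threshold (0.0572), and passed without the 3 arrays that stood apart (0.0225), with centred arrays (0.03) and under quantile normalization (0.0107).

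Of 27 monocyte surface receptors, CD14 and TREM1 were called higher and 0 lower, the median was 0.14, and 22 had changes above 0. Counts above 0 in lists of other kinds were 11 of 11 (median 0.19) for hepatocyte markers, 10 of 12 (0.21) for fibroblast markers, 8 of 10 (0.11) for T and NK cell markers and 22 of 29 (0.13) for mitosis genes. ITGAM, the integrin CD11b, read 6.15 and 6.27 at 0 h, 7.26 and 7.29 at 8 h and 7.97 and 7.93 at 36 h. The times did not overlap, but the late change of 0.68 ± 0.21 was not called (limma, adjusted p = 0.267), while the early change of 1.06 ± 0.21 was. The late change also missed under quantile normalization (0.116) and with the 6 HL60 arrays alone (0.138). It passed without the 3 arrays that stood apart (0.0268). CSF1R, the receptor for M-CSF, and the scavenger receptor CD163, both known from macrophages, changed by 0.29 ± 0.22 and 0.34 ± 0.24, neither called.

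Of 8 S100 genes 0 were called, the median was 0.07, 5 were above 0, and S100A4 had the lowest change at -0.73 ± 0.37. S100A8 read 8.54 and 8.92 at 8 h and 9.62 and 9.45 at 36 h, and S100A9, its partner in calprotectin, 6.06 and 6.17 against 7.34 and 6.67. Neither overlapped between times, with changes of 0.80 ± 0.21 and 0.90 ± 0.21 (limma, adjusted p of 0.127 and 0.0695). Both passed without the 3 arrays that stood apart (0.0425 and 0.0251), as did CTSS, cathepsin S (0.75 ± 0.22 in the fit of all arrays, 0.222, against 0.0354). Among the settings tried, S100A8 and CTSS passed in no other. Of 22 lysosomal genes 0 were called in the fit of all arrays, with a median of 0.08.

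Among 35 vitamin D responsive genes, 5 were called higher (CYP24A1, FBP1, ORM1, its near-identical copy ORM2, and CD14) and 1 lower (NINJ1). The median was 0.12, and 28 were above 0. In the early step 8 of the 35 had been called higher and 0 lower, against 43 and 1 of all 18417 genes. At 36 h against 0 h, 14 of the 35 were higher, beside 128 of all genes. In either direction, 0.868% of all probe sets were called for 36 h against 0 h. VDR, the receptor itself, read 5.87 and 6.10 at 0 h, 6.28 and 6.40 at 8 h and 5.77 and 5.73 at 36 h. Its late change of -0.58 ± 0.20 was not called (limma, adjusted p = 0.443). CD38, an ectoenzyme that consumes NAD, had risen early by 1.65 and changed by 0.37 ± 0.25 late, not called.

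KIT, the receptor for stem cell factor on progenitors, read 6.20 and 6.41 at 0 h, 5.49 and 5.55 at 8 h and 4.52 and 4.54 at 36 h. The 3 times did not overlap, and neither step alone was called, the late one being -0.99 ± 0.26 (limma, adjusted p = 0.11). It also missed under quantile normalization (0.0788), with centred arrays (0.0752) and with the replicate block (0.132). It passed in the late step without the 3 arrays that stood apart (0.0157) and with the 6 HL60 arrays alone (0.0204), and 36 h against 0 h was called in the fit of all arrays (-1.78, 2.36e-05). Of 18 progenitor genes 0 were called in either step. MYC changed by -0.32 ± 0.16 late, from 10.21 and 10.23 to 10.10 and 9.71, and was not called (0.863). Of 21 myeloid transcription factors 0 were called late, CEBPA at -0.74 ± 0.24 and SPI1 (PU.1) at -0.46 ± 0.24 included.

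Genes of proliferation did not pass in the late step. Of 29 DNA replication genes and 29 mitosis genes 0 were called, with changes from -0.33 to 0.21 and from -0.16 to 0.30. Their medians were -0.01 and 0.13, against -0.24 and -0.28 for the mean of the 8 other lines. The cell cycle inhibitor CDKN1A changed by 0.10 ± 0.22 (95% interval -0.34 to 0.55). The cholesterol list (0 of 14 called, median -0.03) and the amino acid and unfolded protein stress list (0 of 19, -0.16) stood at 0.40 and 0.24 in the mean of the other lines. These differences between medians were not tested.

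Of 23 interferon-stimulated genes MX2 alone was called, and the median was 0.12, against 0.26 in the mean of the other lines. Of 18 hypoxia and glycolysis genes FBP1 was called higher, and of 19 complement and coagulation genes CR1, with a list median of -0.12. In the lists of pattern recognition receptors (19), the phagocyte oxidase (5), integrins (16), chemokines and cytokines (32), MHC class II (7), cyclin-dependent kinase inhibitors (18), ribosome biogenesis (24), fatty acid and lipid storage (18) and iron handling (14), 0 genes were called. The same held for markers of hepatocytes (11), erythroid cells and megakaryocytes (11), T and NK cells (10) and eosinophils, basophils and mast cells (9). Mean levels on the HL60 arrays at 8 h and 36 h were 3.77 to 4.09 for the hepatocyte list, against 9.68 to 10.53 in HepG2, and 4.80 to 5.02 for the erythroid list, against 6.79 to 7.0 in K562.

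**Figure D4:**
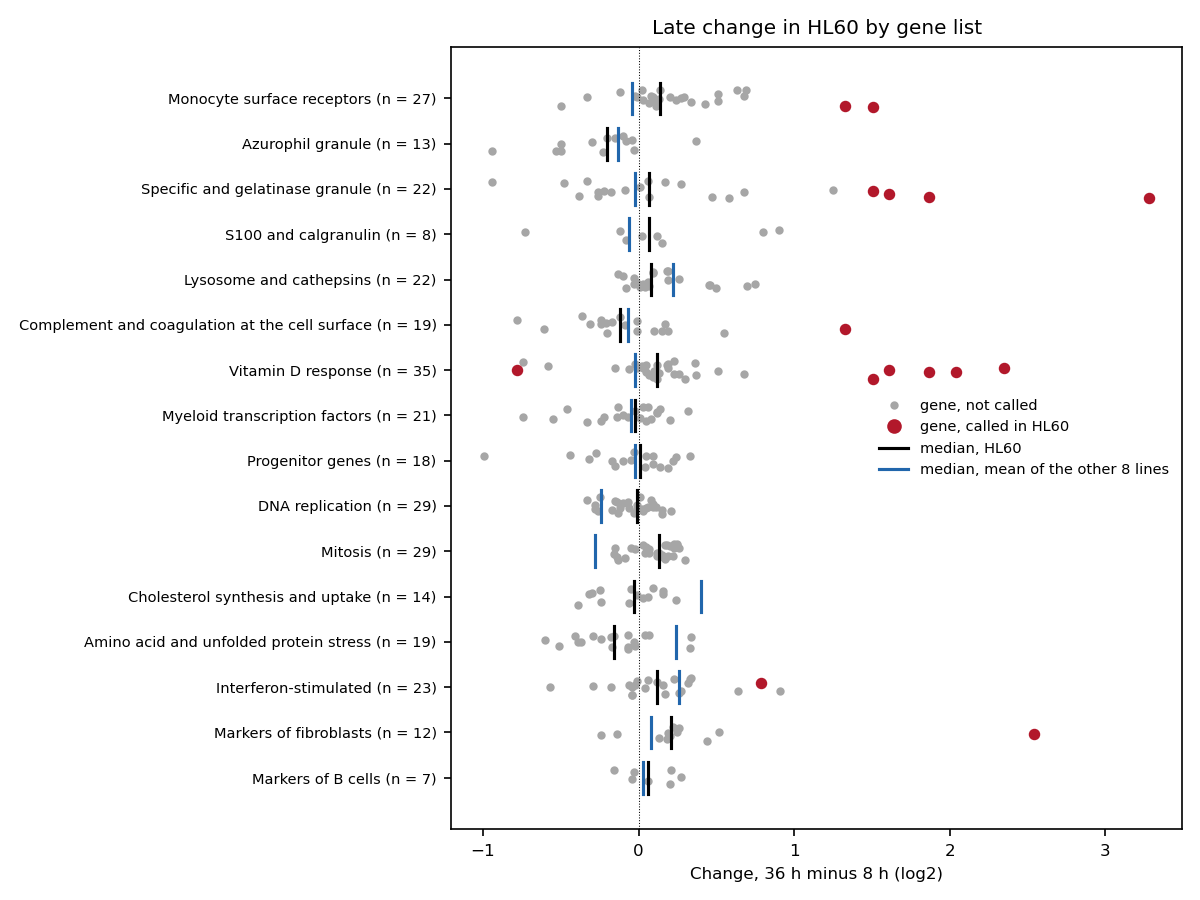
The late change (log2) of each measured gene in HL60 is shown for 16 of the 30 lists, with genes spread vertically for legibility. Red points are called, black bars are HL60 medians and blue bars the medians of the mean of the 8 other lines, and the called members of the granule, monocyte and vitamin D lists stand apart from members near 0.

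The late change of HL60 was set against the same interval in the 8 other lines, which also had calcitriol. For 15 probe sets, 0.0771% of those tested, the HL60 late change differed from the mean of the others, 13 higher and 2 lower, or 15 of 23 higher with each array centred on its median. MMP8 changed by 3.28 in HL60 and by -0.53 to 0.10 in the others, so the difference from their mean was 3.50 ± 0.28 (limma, adjusted p = 1.75e-10). FN1 differed by 2.38 ± 0.22 (6.69e-09), and the highest other line was K562 at 0.79. FBP1 (2.11 ± 0.23), OLFM4 (1.68 ± 0.25), CD14 (1.56 ± 0.25), AQP9 (1.48 ± 0.22) and TREM1 (1.37 ± 0.20) also differed, and in none of these did another line exceed 0.48. ORM1 differed from the mean by 2.09 ± 0.33 (7.08e-04), but HepG2 had a late change of 1.49, and the other lines ranged down to -1.19.

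CYP24A1 rose late in 7 of the 8 other lines, with a mean of 1.37, and the HL60 excess of 0.98 ± 0.36 did not pass (limma, adjusted p = 0.449). HL60 changed by 2.35 ± 0.33, beside 3.07 in AG09319, 2.54 in AG09309, 2.42 in K562 and -0.51 in HepG2. Differences between single lines were not tested. The means of AG09319 at 8 h and K562 at 36 h each include an array that stood apart. ITM2C fell in HL60 by 0.77 and rose in all 8 other lines by 0.16 to 0.90, a difference of -1.19 ± 0.16 (2.79e-05). ATXN7L1 differed by -1.23 ± 0.24 (0.0134), with the others between -0.13 and 0.58. It was not among the genes that differed when its probe set of highest mean was used. The count of 15 was 9 without replicate 1 at 8 h and 46 without the 3 arrays that stood apart, which lie in other lines.

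**Figure D5:**
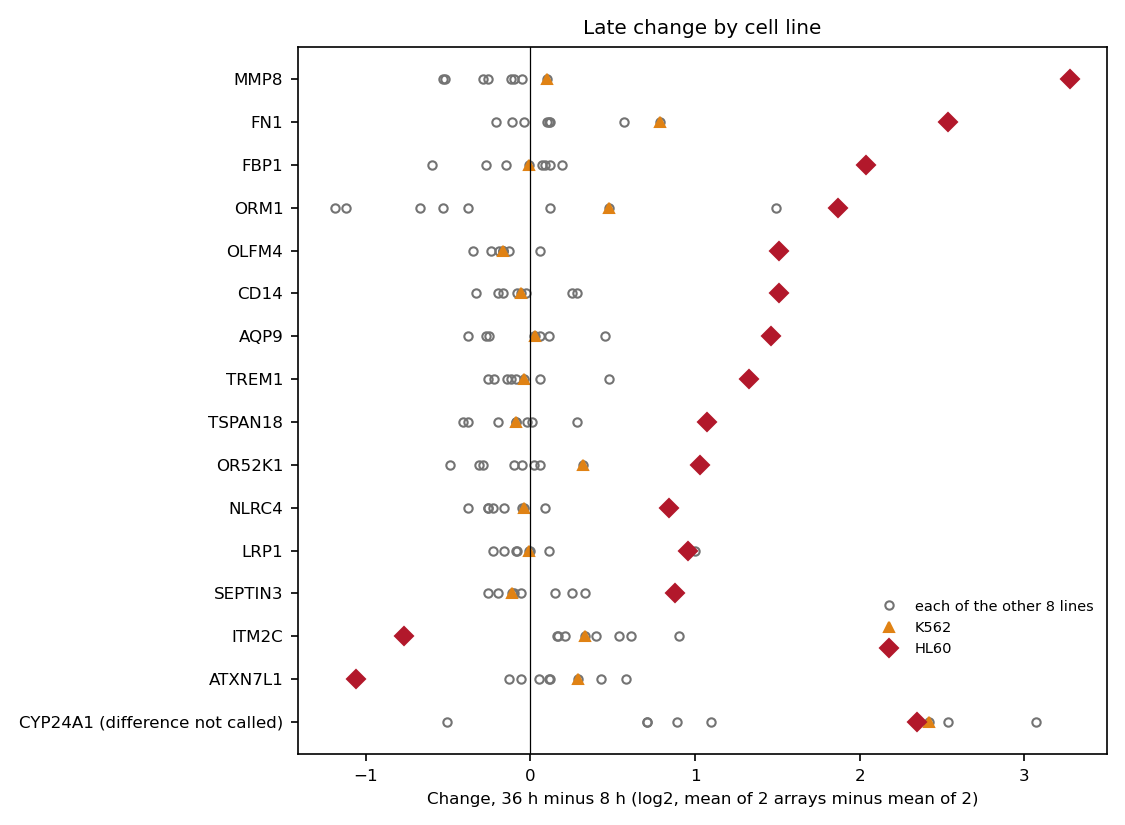
The change from 8 h to 36 h (log2, mean of 2 arrays minus mean of 2) is plotted by cell line for the 15 genes whose late change differed between HL60 and the mean of the others, and for CYP24A1, which did not. Red diamonds are HL60 and circles the 8 other lines, with a triangle over K562. MMP8 in HL60 lies at 3.28 with the others at -0.53 to 0.10, and ITM2C is on the opposite side of 0 from the rest.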

How the data were processed

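Total RNA of 9 cell lines was labelled with biotin and measured on 54 Affymetrix Gene 1.0 ST arrays, 2 for each of 27 line-by-time groups. Per the submitters' processing notes, the authors used RMA in Affymetrix Expression Console 1.0, which gives log2 values, as the range of the deposited table shows. The sources used here do not say whether all arrays were normalized together. Of 33297 probe sets, 19460 had 1 gene symbol in the probe table used (18417 genes) and were tested, 1754 had several symbols and 12083 had none there. Of those tested, 19429 had a gene ID found in the RefSeq gene table, and 0 symbols were updated.

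Group means of all 54 arrays were fitted with limma 3.58.1 in R 4.3.3 (lmFit and eBayes, default moderation, 27 residual degrees of freedom before moderation), two-sided, with Benjamini-Hochberg adjustment and a threshold of 0.05, without a replicate block. The fit was tested on simulated data. Contrasts were 36 h minus 8 h, 8 h minus 0 h, 36 h minus 0 h, the late minus the early step, and the HL60 late step minus the mean of the 8 other lines. A late gene had an early change that was not called and was under 0.5.

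The members and the 30 gene lists (562 different genes, 513 measured) were chosen with earlier results of these data known. For a listed gene with several probe sets, that of highest mean stands for it. Genes named were MMP8, ORM1, CD14, CAMP, CYP24A1, VDR, ITGAM, MPO, ELANE, MYC, KIT and CDKN1A, up to 15 called rises and 15 called falls of largest size whose 36 h arrays lay outside the 8 h range, the 4 most changed called members of a list, the 6 largest differences between steps and the 8 largest from the other lines in each direction. Members of lists were named by their values where no change is claimed. LRP1, SEPTIN3, IFI30, IGKC, REXO1L1P, OR7E85BP and OR52K1 were named to complete the count of calls after their values were seen. The same holds for S100A8, S100A9, CTSS and BPI. The precision is limited by the number of arrays. The alternatives were quantile normalization, centring, a filter on low values, 1 probe set per gene, the 6 HL60 arrays alone, leaving out the 3 arrays that stood apart, the lines of the first title style, a replicate block and leaving out each array. Tables and plots used Python 3.11.15, pandas 2.3.3, numpy 2.4.6 and matplotlib 3.10.9, and promoter and microRNA sequences came from RefSeq (GRCh38.p14).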

Additional observations from a re-analysis of the deposited data

Results flagged for a closer look

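The late change of HL60 differed by the interaction test from the mean of the 8 other lines for 15 genes, which are given here as differences (log2) between these. Higher in HL60 were MMP8 by 3.50, FN1 by 2.38, FBP1 by 2.11, ORM1 by 2.09, OLFM4 by 1.68, CD14 by 1.56, AQP9 by 1.48, TREM1 by 1.37, TSPAN18 by 1.18, OR52K1 by 1.13, NLRC4 by 1.0, LRP1 by 0.89 and SEPTIN3 by 0.88. Lower in HL60 were ITM2C at -1.19 and ATXN7L1 at -1.23, the latter not on its probe set of highest mean. The adjusted p of NLRC4, a sensor of the inflammasome, was 0.0436, and its late change within HL60 was 0.84. For LRP1 the other lines ranged from -0.23 to 1.0, the highest being AG09319, and the adjusted p was 0.0458. A group of 2 arrays is too small for a test of single arrays.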

How the results depend on the processing

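The count of 39 probe sets changed between 8 h and 36 h was 113 without the 3 arrays that stood apart, and 6 to 12 when 1 of the 4 arrays was left out. It was 28 to 55 under quantile normalization, centring, the filter on low values, 1 probe set per gene, the 6 HL60 arrays alone and the first title style. The count of 13 for late minus early was 3 with the 6 HL60 arrays alone, 23 without the 3 arrays, 8 with the first title style and 1 to 10 when 1 array was left out. The count of 15 against the other lines was 23 with centred arrays, 46 without the 3 arrays and 9 to 14 when 1 array was left out. The early count of 46 was 106 without the 3 arrays and 15 to 42 when 1 array was left out. With the replicate number as a block, which the HL60 arrays did not bear out as a pairing (correlations of same-numbered deviations of -0.26, 0.25 and -0.11), the late count was 25, of which 23 were among the 39, the count for late minus early was 3, and those for the early step and for the other lines were 42 and 13. With the replicate numbers at 8 h crossed, an alternative chosen after seeing the data, the late count was 22 and that for late minus early 6. The causes of these differences were not tested. Of the calls of these 4 comparisons, 0 changed direction for their own comparison in any of these fits. For the late step most of these fits could not have given another sign. All 39 late calls had both 36 h arrays outside the 8 h range, so leaving out 1 array cannot reverse them. Fits that change only the other lines' arrays, the probe sets kept or the block leave the HL60 late estimate as it was. Without detection calls, changes from levels below the array medians are not exact folds.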

Other observations

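Further genes reached the threshold for 36 h against 8 h in HL60 in the limma fit without the 3 arrays that stood apart and not in the fit of all arrays, and were picked after their values were seen. CD274, the checkpoint ligand PD-L1, read 3.10 and 2.98 at 0 h, 4.03 and 4.36 at 8 h and 5.23 and 5.34 at 36 h, a rise in each step with a late change of 1.09 ± 0.23 (adjusted p = 0.0156). The glucose transporter SLC2A3 went from 8.12 and 8.04 to 8.94 and 8.78 (0.78 ± 0.15, 4.57e-03), and the lysosomal ceramidase ASAH1 from 8.73 and 8.68 to 9.36 and 9.47 (0.71 ± 0.14, 0.005). In the fit of all arrays the adjusted p-values of these 3 genes were 0.0627, 0.0685 and 0.218. CD274 also passed with the 6 HL60 arrays alone (0.0164), and SLC2A3 and ASAH1 under quantile normalization (0.0147 and 0.00698). The cytokine gene TNF went from 6.34 and 6.27 to 5.64 and 5.31 (-0.83 ± 0.20, 0.0444), on probe sets with the same values, and the neuropeptide gene GAL from 7.59 and 8.32 to 6.83 and 7.04 (-1.02 ± 0.22, 0.0176). For TNF and GAL the fit of all arrays gave 0.262 and 0.083. In each of these 5 genes both 36 h arrays lay outside the range of the 8 h arrays.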
